A study of Homo sapiens with 82 samples.

Results

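RNA-seq counts of 8 libraries of HT29 cells, a human colorectal adenocarcinoma line, were used to compare a pair of agonists of the liver X receptors (LXRs) directly with each other: 4 libraries of cells kept for 48 h in 10 μM GW3965 and 4 of cells kept for 48 h in 10 μM T0901317. These 8 libraries are those that the labels give this drug and time, out of 82 samples in the series and 32 RNA-seq libraries. The other RNA-seq libraries are 4 each of DMSO, the vehicle, and of 10 μM rosiglitazone, an agonist of PPARG, at 48 h, and the same 4 groups at 24 h. All cells were grown in phenol red-free medium with charcoal-stripped serum, all are wild type and of 1 line, and the labels do not say whether replicates were separate cultures, so the p-values measure the spread between these libraries. Because the test sets one agonist against the other, it does not use the DMSO libraries that comparisons of each agonist with the vehicle share.

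LXRA (NR1H3) and LXRB (NR1H2) are nuclear receptors that bind oxysterols and, as partners of the retinoid X receptor, switch on genes of sterol efflux, phospholipid remodelling and fatty acid synthesis. In the intestine they are known for driving cholesterol out of enterocytes and for the lipogenic regulator SREBF1. PPARs, FXR and PXR are related receptors that take up the same partner and respond to fatty acids, bile acids and foreign compounds, and each has its own well-known target genes, which are therefore described here by receptor.

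The authors' whole-number counts per gene summed to between 36537256 and 50938082 per library with GW3965 and between 37646580 and 49912230 with T0901317. The T0901317 libraries differed more among themselves than the GW3965 libraries did, with a chi-square per degree of freedom between 11.7 and 42.2 for pairs of T0901317 libraries and between 4.84 and 13.7 for pairs of GW3965 libraries. T0901317 replicate 3 was in the most distant pairs and had the lowest share of mitochondrial counts (2.57%, against up to 3.75% in the same group and 2.79% to 3.27% with GW3965). Replicate 3 was also the lowest in this share with GW3965, with DMSO (1.85%) and with rosiglitazone (2.37%) at 48 h. No pair agreed within sampling noise. All 11 markers of colon epithelial lines were detected in every library, whereas endothelial markers summed to at most 2.39 CPM (counts scaled to a common library size) and fibroblast markers to at most 11.1 CPM. Leukocyte markers summed to between 564 and 616 CPM with GW3965 and between 704 and 781 CPM with T0901317, of which LYZ alone, a lysozyme that intestinal epithelium also makes, gave 570.4 ± 22.1 CPM and 719 ± 34.2 CPM (SD, n = 4 here and below). Hepatocyte markers summed to between 80.0 and 94.3 CPM and between 146 and 161 CPM, nearly all of it SERPINA1.

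At 48 h, 60 genes were higher with GW3965 and 66 were higher with T0901317, out of 21998 genes tested. A gene was called at an adjusted p under 0.01 and a change of at least 2-fold in edgeR's quasi-likelihood test with Benjamini-Hochberg adjustment, which is the test behind every adjusted p of a single gene given below. The calls made up 0.273% and 0.3% of the genes tested, 0.573% together. At 1.5-fold the numbers were 340 (1.55%) and 196 (0.891%), and without any fold cutoff 1374 (6.25%) and 936 (4.25%). For 19445 genes (88.4%) the 95% interval of the difference lay within 2-fold in both directions, and for 13979 genes (63.5%) it lay within 1.5-fold. The median difference over all genes was -0.01 on the log2 scale, with quartiles of -0.17 and 0.18. Scaling by library size alone, in place of TMM factors, moved the differences by a median of -0.08 and changed the calls to 40 higher with GW3965 and 91 higher with T0901317. Without T0901317 replicate 1 the genes higher with GW3965 numbered 102. In 123 of the 126 called genes all 4 libraries of one agonist lay above all 4 of the other, a pattern that 12.1% of all genes showed in favour of GW3965 and 11.7% in favour of T0901317. Of the called genes, 43 had an average log2 CPM below 0. Under the stricter test of whether a difference exceeds 1.5-fold (edgeR's glmTreat), 14 genes stood higher with GW3965 and 16 with T0901317.

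**Figure D1:**
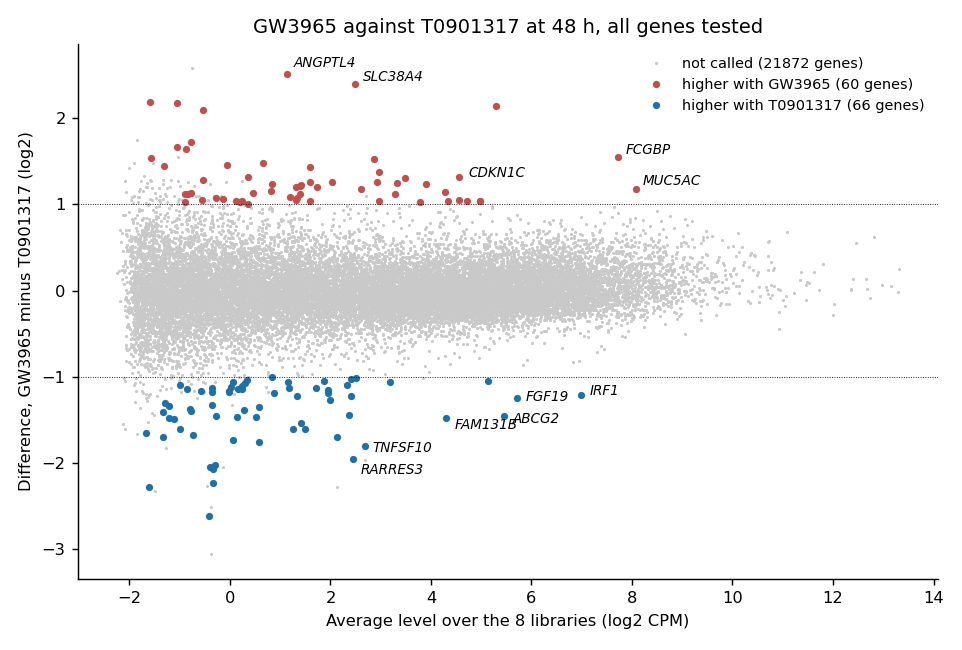
Each point is 1 of 21998 genes, with its average level over the 8 libraries on the x axis (log2 CPM) and the difference of GW3965 minus T0901317 at 48 h on the y axis (log2); red and blue points are the 60 and 66 called genes, and dotted lines mark 2-fold. Most genes lie near 0, and the called genes at high levels are few, among them FCGBP and MUC5AC above and IRF1, FGF19 and ABCG2 below.

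Of 14 tested classical LXR targets, 6 were higher with GW3965 and 0 were higher with T0901317 at an adjusted p under 0.01 and any fold, while 8 did not pass. Of all genes 6.25% were higher with GW3965 and 4.25% with T0901317 by the same call (10.5% in either direction), and the list's median difference was 0.35 (log2). ABCA1, the transporter that loads cholesterol onto apolipoprotein A-I, was at 136, 122, 143 and 124 CPM in the 4 GW3965 libraries and at 76.0, 80.0, 80.0 and 97.8 CPM in the 4 T0901317 libraries. The groups do not overlap, and both stand far above DMSO at 2.41 ± 0.584 CPM. The difference between the agonists was 0.65 ± 0.08 (log2 ± SE, adjusted p = 8.99e-05), a 1.57-fold difference on top of log2 changes of 5.77 and 5.12 against DMSO. SREBF1, the transcription factor that governs lipogenic enzymes, stood at 2575, 2572, 2776 and 2468 CPM with GW3965 and at 1933, 1485, 1331 and 1736 CPM with T0901317, with no overlap (0.68 ± 0.09, adjusted p = 0.000208).

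Smaller differences in the same direction were found for NR1H3 itself (0.44 ± 0.06, adjusted p = 0.000143), for the phospholipid-remodelling enzyme LPCAT3 (0.43 ± 0.06, adjusted p = 0.000351) and for the sterol transporter ABCG1 (0.35 ± 0.07, adjusted p = 0.00226). ABCG1 was past the threshold in the fit of these 8 libraries and not in a fit of all 16 libraries of 48 h (adjusted p = 0.0513). NR1H2, which encodes LXRB, missed the threshold (0.23 ± 0.06, adjusted p = 0.0139). MYLIP, the E3 ligase that marks the LDL receptor for degradation, did not pass the test, with 25.8 ± 1.13 CPM and 24.3 ± 1.36 CPM and a 95% interval of the difference from -0.06 to 0.22. The desaturase SCD, a target of LXR and SREBF1, was at 5446 ± 206 CPM with GW3965 and 4964 ± 338 CPM with T0901317, and its interval reached from 0.00 to 0.26.

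Enzymes of fatty acid and cholesterol synthesis did not follow SREBF1 as a group. In the fatty acid list 1 of 14 tested members was higher with GW3965 and 1 with T0901317 (median 0.03), and in the cholesterol list 4 and 2 of 25 (median -0.04). The shares over all genes were 6.25% and 4.25%. The cholesterol counts became 2 and 7 when library size alone was used for scaling. FASN, the fatty acid synthase, was at 8709, 9323, 7518 and 8316 CPM with GW3965 and at 7424, 4989, 3795 and 5876 CPM with T0901317. Every GW3965 library lay above every T0901317 library, although the latter spread widely (0.62 ± 0.14, adjusted p = 0.00657), and the adjusted p was 0.0138 with DESeq2. The cyclase LSS was higher with GW3965, at 381 ± 26.2 CPM against 279 ± 44.6 CPM (0.45 ± 0.09, adjusted p = 0.0033). The sterol oxidase MSMO1, listed as SC4MOL, was higher with T0901317 (-0.46 ± 0.09, adjusted p = 0.00157), and so were the thiolase ACAT2 (-0.34 ± 0.07, adjusted p = 0.00355) and the acetyl-CoA synthetase ACSS2 (-0.32 ± 0.08, adjusted p = 0.00774). Several of these calls depended on single libraries, and when each of the 8 was left out in turn FASN kept its call in 2 fits (highest adjusted p = 0.0264), LSS in 3 (0.0148), ACAT2 in 5 (0.0178) and ACSS2 in 2 (0.03), while MSMO1 kept it in 8.

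Genes known as PPAR targets were among those with large differences in favour of GW3965. ANGPTL4, a secreted inhibitor of lipoprotein lipase, was at 3.66, 3.17, 3.59 and 3.84 CPM with GW3965 and at 0.895, 0.272, 0.265 and 1.01 CPM with T0901317, against 0.250 ± 0.0785 CPM in DMSO. The lowest GW3965 library was thus above the highest T0901317 library, and the difference was 2.51 ± 0.29 (5.68-fold, adjusted p = 6.31e-05). SLC38A4, a carrier of neutral and cationic amino acids that is on none of the lists, showed the same order, with 8.51, 8.98, 9.48 and 9.61 CPM with GW3965 and 2.06, 1.48, 1.79 and 1.59 CPM with T0901317 (2.39 ± 0.12, 5.26-fold, adjusted p = 1.71e-08).

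Within the PPAR list 9 of 22 tested members were higher with GW3965 and 2 with T0901317, against 6.25% and 4.25% of all genes, with a median difference of 0.26. The carnitine palmitoyltransferase CPT1A, which admits long-chain fatty acids to the mitochondrion, was at 192, 192, 208 and 195 CPM with GW3965 and at 119, 123, 124 and 119 CPM with T0901317. This separation was narrow in fold and wide against the spread of the libraries (0.70 ± 0.05, adjusted p = 1.67e-06). The lipid droplet coat protein PLIN2 was at 22.2 ± 1.70 CPM against 11.8 ± 0.856 CPM (0.91 ± 0.08, adjusted p = 4.4e-06), and the pyruvate dehydrogenase kinase PDK4 at 21.9 ± 1.91 CPM against 13.1 ± 1.28 CPM (0.74 ± 0.09, adjusted p = 6.03e-05). In the rosiglitazone libraries of the same time the level of ANGPTL4 was 27.4 ± 6.19 CPM, that of SLC38A4 81.4 ± 7.12 CPM and that of PLIN2 156 ± 52.9 CPM. CPT1A differed from these in order, with 127 ± 3.51 CPM under rosiglitazone, below the GW3965 level. NDUFA4L2, a mitochondrial protein induced in hypoxia, was at 4.23 ± 1.21 CPM with GW3965 and 1.55 ± 0.490 CPM with T0901317 (1.43 ± 0.24, adjusted p = 0.000752), while DMSO stood at 3.99 ± 0.730 CPM.

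**Figure D2:**
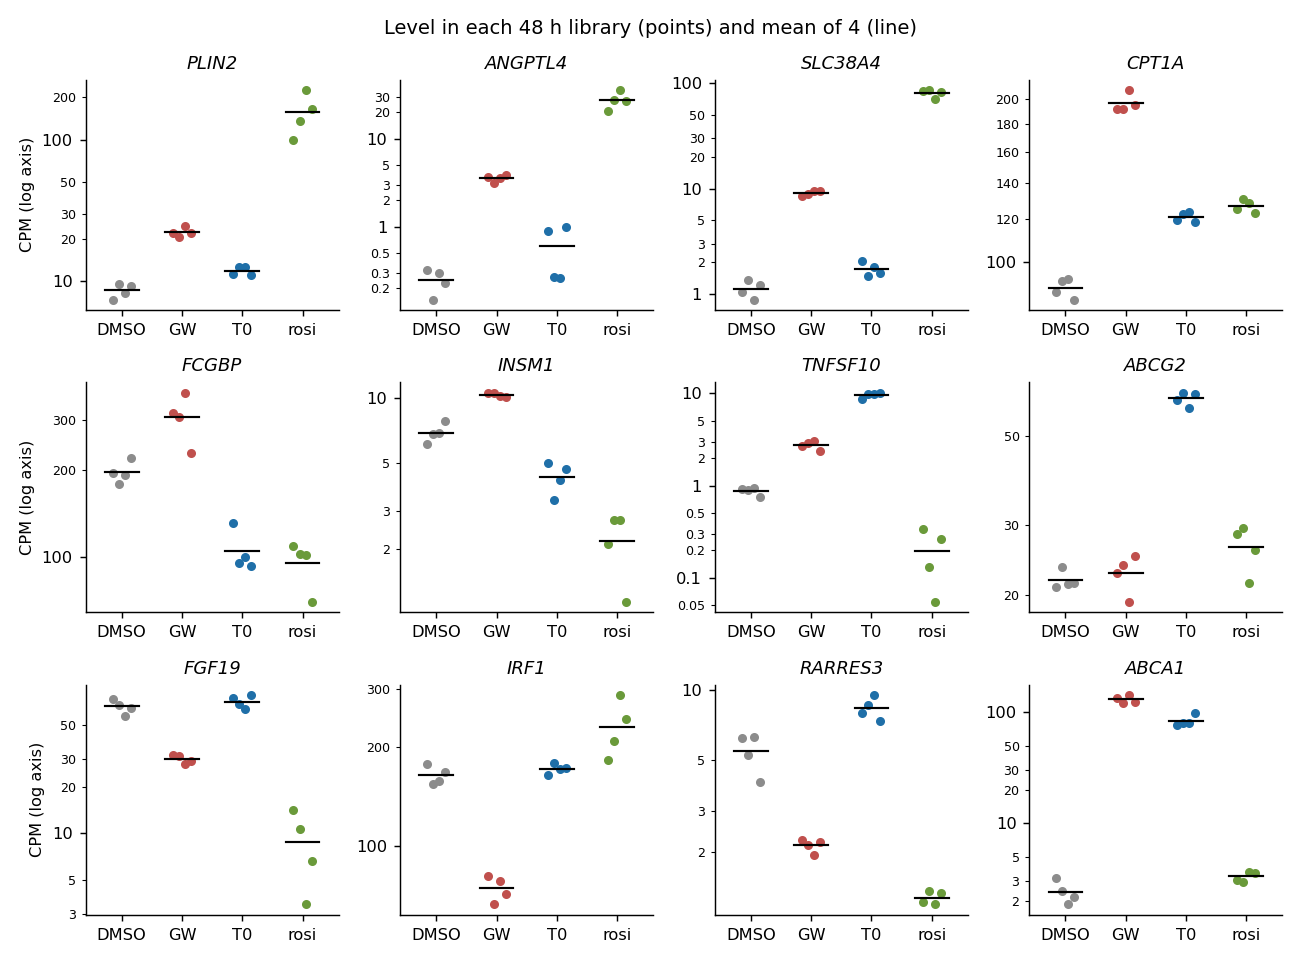
Points are the 4 libraries of each group at 48 h (DMSO, GW for GW3965, T0 for T0901317, rosi for rosiglitazone) and lines are their means, in CPM on a log axis, for 12 genes. PLIN2, ANGPTL4, SLC38A4, CPT1A, FCGBP, INSM1 and ABCA1 are higher with GW3965 and TNFSF10, ABCG2, FGF19, IRF1 and RARRES3 are higher with T0901317, in each case without overlap of the 2 agonists.

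Of 23 tested genes of the goblet and secretory lineages 7 were higher with GW3965 and 2 with T0901317, against 6.25% and 4.25% of all genes, with a median of 0.13. FCGBP, the mucus protein that binds IgG Fc, was at 317, 307, 372 and 230.5 CPM with GW3965 and at 131, 95.7, 100.2 and 93.2 CPM with T0901317, with DMSO between them at 197 ± 17.8 CPM (1.54 ± 0.13, adjusted p = 3.24e-06). The gel-forming mucin MUC5B was at 9.03, 8.82, 8.16 and 6.78 CPM against 4.24, 3.44, 3.27 and 3.53 CPM (1.17 ± 0.12, adjusted p = 2.41e-05), and the neighbouring mucin MUC5AC, whose repeats can share reads with other mucins, at 363 ± 49.9 CPM against 160.5 ± 34.8 CPM (1.18 ± 0.13, adjusted p = 3.57e-05). SPDEF, the transcription factor of goblet cell maturation, followed with 101 ± 4.49 CPM against 57.9 ± 5.68 CPM (0.80 ± 0.07, adjusted p = 5.17e-06). In bulk RNA, a smaller number of cells of one type and less RNA per cell cannot be told apart.

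Of 9 tested enteroendocrine markers 3 were higher with GW3965 and 0 with T0901317, against 6.25% and 4.25% of all genes. INSM1, a zinc finger factor of endocrine differentiation, was at 10.5, 10.5, 10.2 and 10.0 CPM with GW3965 and at 4.98, 3.36, 4.17 and 4.70 CPM with T0901317, and DMSO lay between the 2 agonists at 6.90 ± 0.688 CPM (1.25 ± 0.11, adjusted p = 5.17e-06). The endocrine progenitor factors NEUROG3 (0.81 ± 0.11, adjusted p = 0.000155) and PAX4 (0.67 ± 0.09, adjusted p = 0.000122) moved the same way. The whole list of 20 enteroendocrine markers summed to between 56.1 and 62.4 CPM with GW3965, between 38.1 and 43.1 CPM with T0901317 and between 38.4 and 44.2 CPM in DMSO.

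Regulators of Wnt signalling and growth included further genes of this direction. NOTUM, a secreted enzyme that inactivates Wnt proteins and is itself a Wnt target, was at 9.56, 10.9, 12.2 and 11.2 CPM with GW3965 and at 4.96, 3.04, 4.52 and 4.27 CPM with T0901317 (1.38 ± 0.13, adjusted p = 1.02e-05). The Wnt targets SP5 (0.60 ± 0.10, adjusted p = 0.000566) and MYC (0.54 ± 0.09, adjusted p = 0.00066) and the antagonist NKD2 (0.54 ± 0.09, adjusted p = 0.00109) were higher with GW3965 as well. SP5 and NKD2 were above DMSO with GW3965, and NKD2 was above it with T0901317 as well, at 14.2 CPM against 9.76 CPM. MYC was below DMSO with both agonists, at 152 CPM with GW3965 and 104 CPM with T0901317 against 328 CPM. The Wnt list had 5 of 18 members higher with GW3965 and 2 higher with T0901317, against 6.25% and 4.25% of all genes, with a median of 0.20. CDKN1C, an inhibitor of cyclin-dependent kinases, was at 33.2, 33.6, 36.2 and 27.7 CPM with GW3965 and at 15.2, 10.4, 10.8 and 15.9 CPM with T0901317, where it was close to the 14.2 ± 1.40 CPM of DMSO (1.32 ± 0.13, adjusted p = 1.26e-05). Of 17 tested inhibitors of cyclin-dependent kinases and p53 targets, 1 was higher with each agonist (median -0.02), against the same shares of all genes.

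Few genes of the cell cycle passed the test. Of 40 genes of DNA replication and S phase 4 were higher with T0901317 and 0 with GW3965 (median -0.17), and of 30 mitotic genes 5 and 0 (median -0.16), where 4.25% of all genes were higher with T0901317. These counts moved with the scaling, to 8 and 11 when library size alone was used, and to 1 and 1 in the fit of all 16 libraries of 48 h. Leaving out 1 library at a time gave 2 to 4 replication genes and 1 to 3 mitotic genes. TOP2A, the topoisomerase of dividing cells, was at 202 ± 9.42 CPM with GW3965 and 262 ± 11.8 CPM with T0901317 (-0.37 ± 0.06, adjusted p = 0.000527).

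Most interferon-stimulated genes tested were higher with T0901317. Among 28 tested members 18 were higher with T0901317 and 0 were higher with GW3965, 14 of them by at least 1.5-fold, and the median difference was -0.68. Of all genes 4.25% were higher with T0901317 and 6.25% with GW3965. Against DMSO, 13 members were lower and 3 higher with GW3965, while 9 were higher and 3 lower with T0901317. Over all genes, 17.5% were lower and 16.1% higher than DMSO with GW3965, and 14% were higher and 16.1% lower with T0901317. IRF1, a transcription factor that opens interferon responses, was at 81.1, 66.5, 78.1 and 71.6 CPM with GW3965 and at 164, 178, 171 and 173 CPM with T0901317. T0901317 was at the DMSO level of 164 ± 10.5 CPM, with a 2.31-fold difference between the agonists (-1.21 ± 0.07, adjusted p = 4.9e-08). IFIT3, which binds viral RNA together with IFIT1, was at 1.74, 2.16, 1.78 and 2.20 CPM against 4.08, 4.18, 4.46 and 4.51 CPM (-1.13 ± 0.13, adjusted p = 4.62e-05).

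The RNA sensor DDX58 was also higher with T0901317 (-0.66 ± 0.09, adjusted p = 0.000209), as was the antiviral membrane protein IFITM3, whose reads may be shared with close copies (-1.15 ± 0.14, adjusted p = 9.87e-05). Genes with related roles that are not on the list moved the same way, and DDX60 and UBA7 are described here. DDX60, a cofactor of viral RNA sensors, was at 1.36, 0.983, 1.32 and 0.823 CPM with GW3965 and at 2.18, 3.86, 3.84 and 3.79 CPM with T0901317, with DMSO at 3.94 ± 0.369 CPM (-1.60 ± 0.21, adjusted p = 0.000156). UBA7, the enzyme that activates ISG15, was at 2.37, 1.42, 2.86 and 1.24 CPM with GW3965 and at 7.20, 6.66, 7.08 and 4.78 CPM with T0901317, well above 2.25 ± 0.475 CPM in DMSO (-1.70 ± 0.22, adjusted p = 0.000121). PSMB9, named after its value had been seen, had the lowest value of the list, -2.32 ± 0.66, and did not pass the test (adjusted p = 0.0202), with 0.0967 CPM and 0.480 CPM and overlapping libraries.

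Promoters of these genes are shown because the members moved together and because interferon genes are known for a shared element, the interferon-stimulated response element (ISRE). RefSeq promoters of build GRCh38.p14, from 250 bases before to 50 bases after the start, were matched for 9837 of the 21998 genes tested and for 60 of the 126 called genes. The letters GAAANNGAAA, searched on both strands with overlaps allowed, occurred in 271 of the 9837 promoters (2.75%), in 11 of 38 promoters of genes called higher with T0901317 (28.9%) and in 1 of 22 promoters of genes called higher with GW3965 (4.55%). Of those 11 genes, 5 belong to the interferon list. The median GC content of the promoters was 65% over all genes tested, 52.7% for the genes higher with T0901317 and 64% for those higher with GW3965. Within the interferon list the element was in 14 of 21 promoters, of which 11 belonged to genes higher with T0901317, against 3 of the 7 promoters without it. The following stretches of 100 bases lie upstream of the start, in the direction of the gene, with the matching letters in capitals: IFIT1 (chr10:89392467-89392566, plus strand), IFIT3 (chr10:89327801-89327900, plus strand), ISG20 (chr15:88638907-88639006, plus strand), DDX60 (chr4:168318781-168318880, minus strand) and TNFSF10 (chr3:172523558-172523657, minus strand).
IFIT1: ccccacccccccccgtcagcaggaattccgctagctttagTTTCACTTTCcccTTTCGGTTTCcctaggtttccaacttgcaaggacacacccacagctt
IFIT3: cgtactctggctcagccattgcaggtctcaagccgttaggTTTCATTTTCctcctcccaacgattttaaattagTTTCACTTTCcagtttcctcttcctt
ISG20: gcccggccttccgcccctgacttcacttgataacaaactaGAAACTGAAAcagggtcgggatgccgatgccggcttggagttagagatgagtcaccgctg
DDX60: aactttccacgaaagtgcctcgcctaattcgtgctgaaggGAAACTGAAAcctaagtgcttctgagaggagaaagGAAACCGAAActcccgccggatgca
TNFSF10: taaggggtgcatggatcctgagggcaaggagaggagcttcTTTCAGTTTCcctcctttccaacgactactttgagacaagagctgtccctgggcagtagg

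The 5 stretches carry the element once or more, at different distances from the start. Their genes all stood higher with T0901317, and IFIT1 and ISG20 were picked after their values had been seen. IFIT1 was at 0.535 ± 0.165 CPM with GW3965 and 1.48 ± 0.463 CPM with T0901317 (-1.47 ± 0.27, adjusted p = 0.00161), and the exonuclease ISG20 at 2.27 ± 0.582 CPM and 4.71 ± 0.707 CPM (-1.05 ± 0.17, adjusted p = 0.000567). Both stood higher in DMSO, at 2.24 ± 0.366 CPM and 7.01 ± 0.826 CPM. Repeats of AGGNCA, the half-site of many nuclear receptors, were searched in the same promoters. The form spaced by 4 bases, known as the LXR type, occurred in 8 of the 9837 promoters and the form spaced by 1 base, known as the PPAR type, in 27, and neither occurred in a promoter of the called genes. At these shares, 0.0813% and 0.274%, an absence from 60 promoters says nothing about the called genes. A match is only a run of letters, and binding at these promoters was not analysed here.

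**Figure D3:**
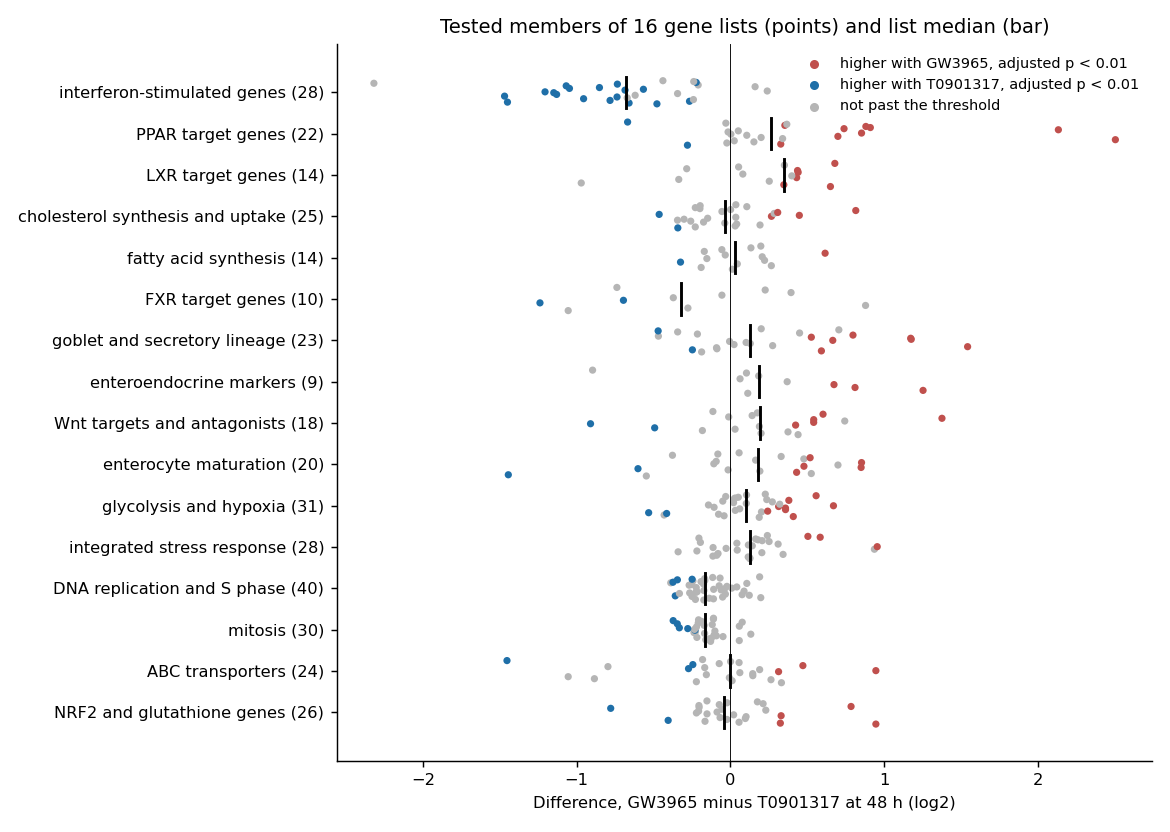
Each point is a tested member of 1 of 16 gene lists, placed by its difference of GW3965 minus T0901317 at 48 h (log2); red and blue points passed an adjusted p of 0.01, grey points did not, and bars are list medians. The interferon list lies mostly left of 0 with a median of -0.68, whereas the medians of the LXR and PPAR lists are 0.35 and 0.26.

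Outside the interferon list, the called genes higher with T0901317 whose promoters held the ISRE letters were BTN3A3, DDX60, GBP4, SLC2A12, TLR3 and TNFSF10. The genes described in this paragraph had varied roles and an average log2 CPM of at least 1. Larger differences of less abundant genes, such as ADH1C (-2.61), are not described. RARRES3, a phospholipase first known as a retinoid-induced growth suppressor, was at 2.26, 2.16, 1.95 and 2.22 CPM with GW3965 and at 7.90, 8.58, 9.46 and 7.36 CPM with T0901317. DMSO at 5.43 ± 1.05 CPM fell between the agonists, and the difference was -1.95 ± 0.11 (3.88-fold, adjusted p = 7.97e-08). TNFSF10, which encodes the death ligand TRAIL, was at 2.66, 2.89, 3.05 and 2.39 CPM with GW3965 and at 8.65, 9.80, 9.75 and 10.2 CPM with T0901317. Both agonists were above DMSO here, at 0.874 ± 0.0897 CPM, by log2 changes of 1.65 and 3.45, and the direct difference was -1.81 ± 0.11 (adjusted p = 7.97e-08). FAM131B was at 10.9, 7.70, 11.5 and 9.86 CPM against 27.1, 27.6, 26.7 and 30.4 CPM (-1.48 ± 0.10, adjusted p = 3.76e-07), and FLYWCH2 at 1.32 ± 0.163 CPM against 4.03 ± 0.318 CPM (-1.61 ± 0.14, adjusted p = 4.4e-06). RASSF4, a RAS-association domain protein, was at 1.28 ± 0.225 CPM against 3.72 ± 0.625 CPM (-1.53 ± 0.16, adjusted p = 3.43e-05).

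Transporters and enzymes of foreign compounds split between the agonists. ABCG2, the breast cancer resistance protein that pumps drugs and urate out of cells, was at 22.7, 23.7, 19.2 and 25.1 CPM with GW3965 and at 61.6, 64.2, 58.9 and 63.8 CPM with T0901317. With GW3965 it was at the DMSO level of 21.8 ± 1.16 CPM, and the agonists differed by -1.45 ± 0.08 (2.74-fold, adjusted p = 2.86e-08). ABCC2, an efflux pump for conjugated compounds, went the other way, with 4.20, 4.04, 3.81 and 4.76 CPM against 2.22, 2.13, 2.12 and 2.26 CPM (0.95 ± 0.12, adjusted p = 0.000122), and both agonists were above the 0.388 ± 0.0556 CPM of DMSO. Among 24 tested ABC transporter genes 3 were higher with each agonist (median -0.00), and among 15 tested PXR and CAR targets again 3 with each (median 0.01). The shares over all genes were 6.25% with GW3965 and 4.25% with T0901317. CYP3A5, the drug-oxidizing cytochrome of the colon, was somewhat higher with T0901317 (-0.36 ± 0.06, adjusted p = 0.00119), and so was UGT1A1, which shares exons with the other UGT1A genes (-0.37 ± 0.07, adjusted p = 0.00123). CYP3A5 was below DMSO with both agonists, at 86.7 CPM with GW3965 and 110.9 CPM with T0901317 against 156 CPM. UGT1A1 was at 152.8 CPM with GW3965 and 197.7 CPM with T0901317 against 135.1 CPM in DMSO. CYP24A1, the enzyme that degrades active vitamin D, was at 1.44 ± 0.0368 CPM with GW3965 and 3.35 ± 0.423 CPM with T0901317 (-1.22 ± 0.14, adjusted p = 5.41e-05).

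A pair of FXR targets was higher with T0901317. FGF19, the enterokine that reports bile acid uptake to the liver, was at 31.8, 31.5, 27.8 and 29.4 CPM with GW3965 and at 74.7, 68.0, 63.4 and 78.1 CPM with T0901317, close to the 66.0 ± 6.93 CPM of DMSO. The agonists did not overlap (-1.24 ± 0.07, 2.36-fold, adjusted p = 7.97e-08). NR0B2, the small heterodimer partner that represses bile acid synthesis, was at 6.28, 6.22, 6.06 and 6.29 CPM against 9.67, 9.57, 9.75 and 11.3 CPM, and DMSO was below both at 2.45 ± 0.318 CPM (-0.70 ± 0.09, adjusted p = 9.67e-05). They were the 2 of 10 tested FXR targets that passed the test, 0 were higher with GW3965, and the list's median was -0.32. Over all genes 4.25% were higher with T0901317 and 6.25% with GW3965. FXR target ABCB4 is given next. This phospholipid transporter did not pass the test (-1.06 ± 0.28, adjusted p = 0.0135).

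CA2, the carbonic anhydrase of enterocytes, was at 3.15, 2.35, 1.95 and 3.18 CPM with GW3965 and at 8.30, 7.35, 5.91 and 7.48 CPM with T0901317, with DMSO at the GW3965 level of 2.54 ± 0.558 CPM (-1.45 ± 0.15, adjusted p = 3e-05). The adhesion protein CEACAM1 was higher with T0901317 too (-0.60 ± 0.06, adjusted p = 2.81e-05), whereas CEACAM5 (0.85 ± 0.10, adjusted p = 8.86e-05) and the keratin KRT20 (0.52 ± 0.06, adjusted p = 4.36e-05) were higher with GW3965, and in total 5 of 20 enterocyte genes were higher with GW3965 and 2 with T0901317 (median 0.18). Glycolysis and hypoxia genes counted 8 and 2 of 31 (median 0.10), with the glucose transporter SLC2A1 (0.56 ± 0.07, adjusted p = 0.000183) on one side and the carbonic anhydrase CA9 (-0.53 ± 0.08, adjusted p = 0.0003) on the other. For the lists of this paragraph, the shares over all genes were 6.25% with GW3965 and 4.25% with T0901317. Of 28 genes of the integrated stress response 3 were higher with GW3965 and 0 with T0901317 (median 0.13), led by the chromatin protein NUPR1 (0.96 ± 0.14, adjusted p = 0.000383). With each agonist 25 of these 28 genes were below DMSO and 0 above it. The median log2 change against DMSO was -1.17 with GW3965 and -1.29 with T0901317. The EGFR ligands AREG, which has a near-identical copy, and EREG were higher with T0901317 (-0.77 ± 0.13, adjusted p = 0.000911, and -0.50 ± 0.11, adjusted p = 0.00428, the latter with overlapping libraries and past the test in 3 of the 8 fits that left out 1 library), and so were the NADPH oxidase NOX1 (-0.78 ± 0.12, adjusted p = 0.000509) and the growth factor TGFB2 (-0.78 ± 0.13, adjusted p = 0.000784). AREG, EREG, NOX1 and TGFB2 were all below DMSO with both agonists. AREG stood at 16.9 CPM with GW3965 and 28.8 CPM with T0901317 against 256 CPM in DMSO, and EREG at 37.2 and 52.9 CPM against 387 CPM.

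The place of the 126 called genes relative to DMSO was read from a fit of all 16 libraries of 48 h, in which a gene counted as higher or lower at an adjusted p under 0.01 and any fold. In that fit 16.1% of the genes tested were higher and 17.5% lower with GW3965, and 14% higher and 16.1% lower with T0901317. Of the 60 genes higher with GW3965, 24 were above DMSO with GW3965 and not called with T0901317, 11 were below DMSO with T0901317 and not called with GW3965, and 6 were above DMSO with both, as was SLC38A4. A further 5 were above DMSO with GW3965 and below it with T0901317, among them FCGBP, INSM1 and NOTUM, 1 was below with both, and 13 were called with neither. Of the 66 genes higher with T0901317, 26 were below DMSO with GW3965 and not called with T0901317, as were IRF1, FGF19 and DDX60, and 16 were above DMSO with T0901317 and not called with GW3965, as were ABCG2, CA2 and UBA7. Another 3 were below DMSO with GW3965 and above it with T0901317, RARRES3 and FAM131B among them, 2 were above with both, 1 was below with both, and 18 were called with neither. Both comparisons rest on the same 4 DMSO libraries.

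**Figure D4:**
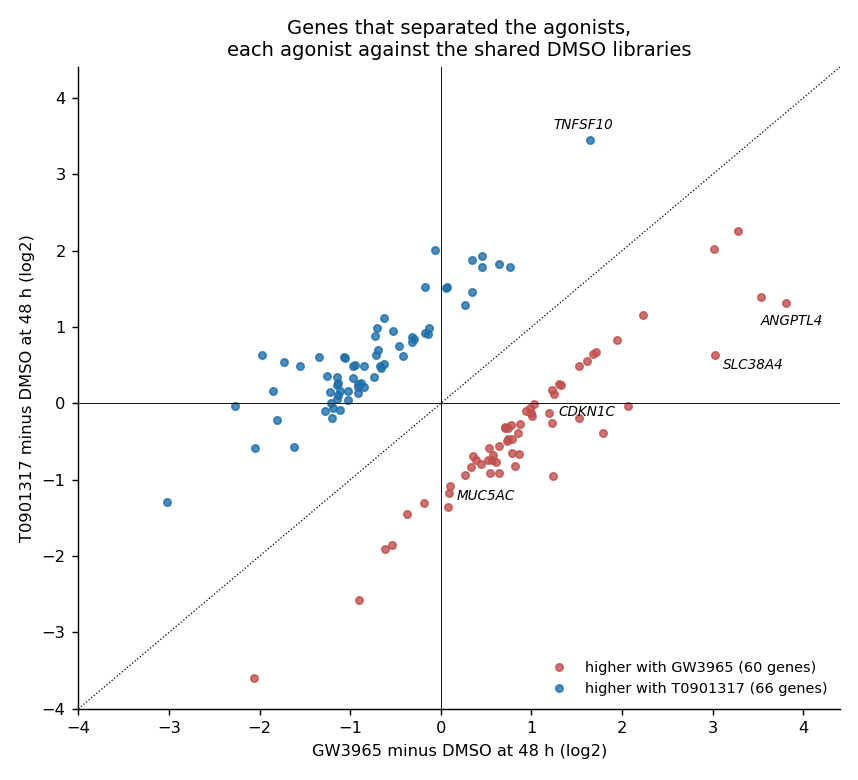
Points are the 126 called genes, with the change of GW3965 against DMSO at 48 h on the x axis and that of T0901317 on the y axis (both log2); red genes are higher with GW3965, blue genes higher with T0901317, and the dotted line marks equal changes. The empty band along the line is set by the 2-fold cutoff, and the 2 axes share the DMSO libraries.

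The direct comparison at 24 h separated fewer genes, and any part of depth in this was not tested. T0901317 libraries summed to between 21044798 and 38908009 counts at 24 h, and GW3965 libraries to between 36791401 and 51332656. There 3 genes were higher with GW3965 (0.0143% of 20934 tested) and 8 higher with T0901317 (0.0382%), and 6 of these 11 were also called at the later time, with the same sign. At any fold the counts were 16 (0.0764%) and 39 (0.186%). Among the 126 genes called late, 107 could be tested at 24 h. Their difference had the same sign in 92 and also passed the adjusted p in 9. GW3965 replicate 1 of 24 h stood apart from the other 3 libraries of its group, with a chi-square per degree of freedom of 31.8 to 73.2 against 5.30 to 11.5 among the others. Without it the genes past the adjusted p at any fold at 24 h went from 55 to 143, whereas leaving out any other library lowered them to between 24 and 39, and without GW3965 replicate 1 the genes of 48 h among them went from 9 of 107 to 19 of 114.

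Early separation was clear for SLC38A4, with 4.52 ± 0.305 CPM with GW3965 and 1.11 ± 0.0746 CPM with T0901317 at 24 h (2.02 ± 0.13, adjusted p = 6.18e-05), and for CPT1A, with 174 ± 6.42 CPM and 109.7 ± 5.85 CPM (0.66 ± 0.06, adjusted p = 0.000402). In the other direction FGF19 (-1.44 ± 0.13, adjusted p = 0.000354), IRF1 (-1.10 ± 0.09, adjusted p = 0.000202) and ABCG2 (-0.88 ± 0.09, adjusted p = 0.000914) had passed the test by 24 h. IFIT3 did not pass at 24 h, at 2.65 ± 0.431 CPM and 3.12 ± 0.142 CPM (-0.24 ± 0.14, adjusted p = 0.661), and its change in the difference from 24 to 48 h did not pass either (-0.90 ± 0.18, adjusted p = 0.061). FCGBP, CDKN1C and INSM1 did not pass at 24 h with all libraries (0.62 ± 0.25, adjusted p = 0.42; 0.62 ± 0.21, adjusted p = 0.312; and 0.59 ± 0.25, adjusted p = 0.46). They did without GW3965 replicate 1 of 24 h (0.84 ± 0.14, adjusted p = 0.00675; 0.83 ± 0.10, adjusted p = 0.000625; and 0.84 ± 0.10, adjusted p = 0.000391). INSM1 was at 3.81 CPM in that library and between 10.1 and 10.4 CPM in the other 3.

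**Figure D5:**
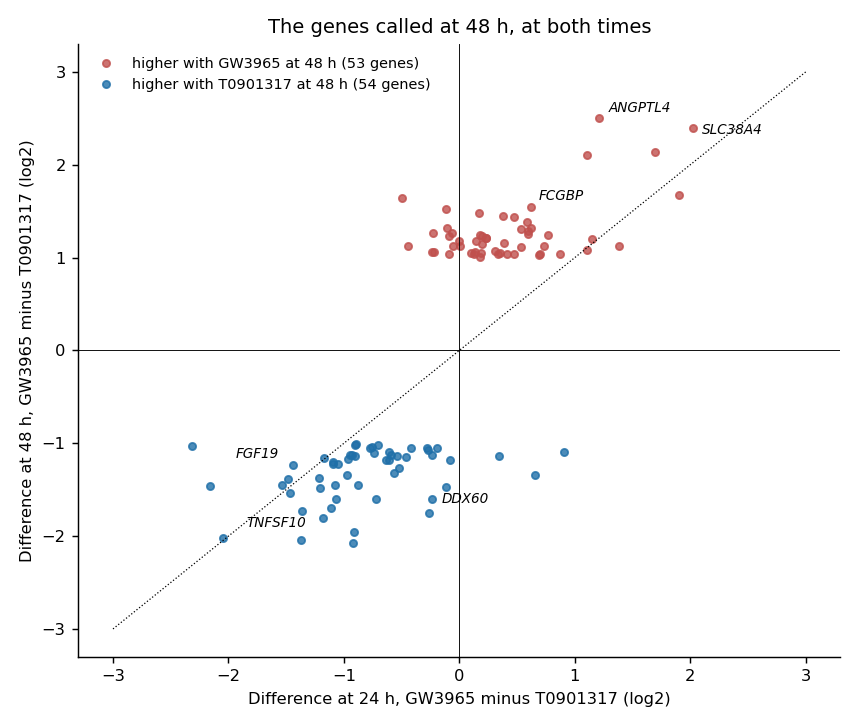
Points are the 107 genes called at 48 h that could be tested at 24 h, with the difference of GW3965 minus T0901317 at 24 h on the x axis and at 48 h on the y axis (both log2), and the dotted line marks equal differences. On 92 of them the sign is the same at both times, and the gap in the middle of the y axis is set by the 2-fold cutoff at 48 h.

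Whether the difference between the agonists changed with time was tested as an interaction over the 16 libraries of both agonists and times. It was called for 2 of 22675 genes (0.00882%) and for 0 of the 126 genes called at 48 h. A fit with the replicate number as a block within each time called 0 genes, with 4261 at an unadjusted p under 0.05. NDUFA1, a subunit of respiratory complex I, was at 8.66, 8.74, 8.28 and 9.01 CPM with GW3965 and at 7.95, 8.49, 7.67 and 8.84 CPM with T0901317 at 24 h, and at 6.84, 7.54, 6.67 and 6.92 CPM against 11.0, 13.0, 13.3 and 12.1 CPM at 48 h. The agonists overlapped at the early time and were separate at the late one (interaction -0.91 ± 0.11, adjusted p = 0.00155). GPX3, a secreted glutathione peroxidase, was at 25.3 ± 1.07 CPM and 26.8 ± 0.436 CPM at 24 h and at 55.1 ± 3.22 CPM and 37.3 ± 0.794 CPM at 48 h (interaction 0.64 ± 0.08, adjusted p = 0.00155). Larger estimates did not pass, among them DDX60 (-1.37 ± 0.29, adjusted p = 0.0865) and MUC5B (1.17 ± 0.30, adjusted p = 0.118).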

How the data were processed

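RNA of HT29 cells was sequenced from both ends as Nextera mRNA libraries, and the authors deposited raw counts, whole numbers for each Ensembl gene. The submitters' processing notes name TopHat, Cufflinks and build hg19. The counting program and strand setting: not given in the sources used here. Thus overlapping genes, antisense genes and near-identical copies are uncertain. The deposited counts were used as they stand. The 8 libraries were filtered (filterByExpr), scaled by TMM factors and fitted in edgeR 4.0.16 (R 4.3.3, limma 3.58.1). DESeq2 1.42.0 was an alternative. Standard errors and 95% intervals come from the log2 difference and the F statistic. CPM values use TMM factors of all 16 libraries of a time. Deviations of same-numbered replicates showed little correlation over genes (between 0.00 and 0.07), and the numbers were not used as pairs. Replicate 3 nevertheless had the lowest mitochondrial share in every group at 48 h, and the labels do not say what a number shares.

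The members and the gene lists were chosen with earlier results of these data known. Lists are given as counts and medians, without a set test. Named genes are the 8 largest differences in each direction among called genes without overlap whose average log2 CPM reached 1, 9 LXR genes, and up to 4 members of each list with the smallest p. Of the rule's genes, MIR663 belongs to a family with near-identical copies and is not described, and some others are not reported here. The element GAAANNGAAA was added after the values had been seen. On simulated counts of the comparison at 48 h with 200 changed genes edgeR recovered 200 with 0 false calls over 21695 genes, and the interaction test 194 with 1 false call over 22322 genes. The planted differences were all larger than 1.23, the median absolute log2 difference of the called genes, and recovery near that size was not tested. Simulated libraries were independent draws, with no outlying library built in. Recovery was also not tested for genes with an average log2 CPM below 0, or for interactions of 0.64 and -0.91 (log2). The alternatives covered scaling, tool, filter, libraries in the fit, fold cutoff, a block for the replicate number and leaving out libraries. ChIP-seq peaks were not analysed here: none is of T0901317, and no gene coordinates of their build were used.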

Additional observations from a re-analysis of the deposited data

Results flagged for a closer look

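Among 184 groups of 4 libraries, 2 for each gene described, 9 held a library far from the other 3, about the 1 in 20 that chance gives. T0901317 replicate 1 was high for MUC2 (65.8 CPM, the lowest of the others 47.2) and low for DDX60 (2.18 CPM, others 3.79 to 3.86). T0901317 replicate 3 was high for FLYWCH2 (4.50 CPM, others 3.81 to 3.91) and replicate 4 for NR0B2 (11.3 CPM, others 9.57 to 9.75). GW3965 replicate 1 was high for OSGIN1 (24.0 CPM, others 21.3 to 21.6) and FLYWCH2 (1.56 CPM, others 1.23 to 1.25) and low for NOX1 (9.25 CPM, others 13.2 to 14.0). GW3965 replicate 2 was low for PDK4 (19.1 CPM, others 22.6 to 23.2), and replicate 3 was high for ISG20 (3.14 CPM, others 1.91 to 2.08). In none of these genes except MUC2 did the outlying library bring the agonists to overlap.

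The difference between the agonists changed from 24 to 48 h for NDUFA1 by -0.91 and for GPX3 by 0.64 (log2, interaction test in edgeR), and neither was called with the replicate number as a block within each time.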

How the results depend on the processing

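The 60 genes higher with GW3965 and 66 higher with T0901317 became 38 and 28 with DESeq2 (64 of its 66 calls shared), 34 and 25 when genes under a mean log2 CPM of 1 were dropped, 340 and 196 at 1.5-fold, 1374 and 936 without a fold cutoff, and 14 and 16 when tested against 1.5-fold. The cause of the DESeq2 counts was not tested. Library size alone gave 40 and 91, DESeq2 size factors in edgeR 63 and 64, limma-voom 65 and 64, no filter 79 and 92, 16 libraries 49 and 55, and 32 libraries 47 and 51. Leaving out 1 library gave 48 to 102 and 49 to 64, the 102 without T0901317 replicate 1. Deviations of same-numbered replicates had correlations of 0.02, 0.07, 0.00 and 0.02 over genes, although replicate 3 had the lowest mitochondrial share in every group at 48 h. A fit with the replicate number as a block called 61 and 65, with 109 of the 126 genes shared. The 2 genes with a change over time became 1 with library size alone, 76 with DESeq2, 5 without a filter, 15 with 32 libraries, and 0 with the replicate block (4261 at an unadjusted p under 0.05), and 1 to 3 when 1 library was left out, 1 without T0901317 replicate 1 of 24 h or GW3965 replicate 1 of 48 h. At 1.5-fold the groups relative to DMSO of 24, 11, 26 and 16 genes held 131, 71, 71 and 48. Of 90 named genes none changed sign with library size alone, DESeq2, 16 libraries, the replicate block or 1 library left out, and of the 86 past the adjusted p, 73 stayed past it whichever library was left out. In the fit of 16 libraries, 11 of the 86 no longer passed and 1 other named gene came to pass. Library size alone, DESeq2 and the replicate block each had 1 gene of either kind. The leave-one-out counts of lists and at 24 h were chosen after seeing the data. Depth limits the 43 called genes with an average log2 CPM below 0.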
